A study of Homo sapiens with 12 samples.

Results

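The 10 genes described here encode cell-surface ligands through which a cell is seen by lymphocytes: MICA, MICB, ULBP1, ULBP2 and ULBP3, PVR and NECTIN2, ICAM1, and CD274 and PDCD1LG2. They were chosen by symbol from a table of gene counts with 62069 genes, and all 10 were found and passed edgeR's filter for expression, which left 15284 genes for testing. Their transcripts were measured by RNA-seq in IMR90 ER:RAS cells, and protein at the cell surface was not measured. IMR90 is a line of human lung fibroblasts, and ER:RAS is a RAS protein joined to an estrogen receptor domain that 4-hydroxytamoxifen (4OHT) switches on, which drives the cells into oncogene-induced senescence (OIS). The 12 libraries form 4 groups of 3, all from passage 13 and labelled day 5: non-induced vector cells (vector), vector cells given 100 nM 4OHT (vector/4OHT), and cells given the same 4OHT while carrying shXPO7_3 or shXPO7_5, which are shRNAs against the nuclear transport receptor XPO7 (shXPO7_3/4OHT and shXPO7_5/4OHT). Every group carries ER:RAS, and no group received 4OHT without it, so an effect of 4OHT itself and one of RAS cannot be told apart. No non-induced group carries an shRNA. The labels leave it unstated if the libraries within a group are cultures grown apart. Each p-value thus reflects how much these libraries varied, and that variation may be technical.

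Natural killer (NK) cells weigh activating against inhibitory signals from the cells they touch. MICA, MICB and the ULBP proteins are distant relatives of MHC class I molecules that stressed cells put on their surface, where the activating receptor NKG2D binds them. PVR and NECTIN2 are adhesion molecules of the nectin family that engage both the activating receptor DNAM-1 and the inhibitory receptor TIGIT. ICAM1 binds the integrin LFA-1 and holds lymphocytes to their targets, while CD274 (PD-L1) and PDCD1LG2 (PD-L2) bind the checkpoint receptor PD-1 and restrain T cells. Senescent fibroblasts are known as targets of NK and T cells, and this balance of ligands is part of how they are cleared.

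The genes lie in 5 clusters or single loci on 3 chromosomes. MICA (ENSG00000204520) and MICB (ENSG00000204516) are direct neighbours in the MHC region of chromosome 6, and ULBP1 (ENSG00000111981), ULBP2 (ENSG00000131015) and ULBP3 (ENSG00000131019) share a second cluster on that chromosome. CD274 (ENSG00000120217) and PDCD1LG2 (ENSG00000197646) are direct neighbours on chromosome 9. PVR (ENSG00000073008) and NECTIN2 (ENSG00000130202) lie close together on chromosome 19, and ICAM1 (ENSG00000090339) lies elsewhere on it. RefSeq promoter windows (GRCh38.p14, 250 bases before to 50 bases after the start) were at hand for 9 of the 10, PDCD1LG2 being the exception. The promoters below are shown because they belong to the gene that moved most (ICAM1), to the checkpoint ligand with interferon-type motifs (CD274), to the NKG2D ligand that moved most (ULBP1) and to the adjacent pair that moved apart (MICA and MICB). Each is written 5′ to 3′ on the strand of the gene and ends at the base before the start. Capitals mark matches to a motif: the STAT motif GAS (TTCNNNGAA) in ICAM1, GAS and the interferon response core (TTTCNNTTT) in CD274, NF-kB in ULBP1 and the heat shock core (GAANNTTC) in MICA and MICB.
ICAM1, chr19:10270970-10271119, plus strand: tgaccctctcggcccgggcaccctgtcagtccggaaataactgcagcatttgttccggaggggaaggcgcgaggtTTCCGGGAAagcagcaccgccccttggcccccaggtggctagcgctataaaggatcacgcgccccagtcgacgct
CD274, chr9:5450292-5450541, plus strand: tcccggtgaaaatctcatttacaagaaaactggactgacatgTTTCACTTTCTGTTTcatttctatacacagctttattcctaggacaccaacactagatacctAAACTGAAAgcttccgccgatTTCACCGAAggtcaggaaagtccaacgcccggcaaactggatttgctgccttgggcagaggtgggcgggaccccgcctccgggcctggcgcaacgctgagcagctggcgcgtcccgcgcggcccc
ULBP1, chr6:149963793-149963942, plus strand: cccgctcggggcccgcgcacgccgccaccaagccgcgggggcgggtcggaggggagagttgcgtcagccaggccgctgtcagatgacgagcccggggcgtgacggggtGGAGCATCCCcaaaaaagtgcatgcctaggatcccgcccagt
MICA, chr6:31403445-31403594, plus strand: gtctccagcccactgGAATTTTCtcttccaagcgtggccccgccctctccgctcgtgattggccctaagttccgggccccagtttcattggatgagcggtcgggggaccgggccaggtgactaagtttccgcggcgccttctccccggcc
MICB, chr6:31497995-31498144, plus strand: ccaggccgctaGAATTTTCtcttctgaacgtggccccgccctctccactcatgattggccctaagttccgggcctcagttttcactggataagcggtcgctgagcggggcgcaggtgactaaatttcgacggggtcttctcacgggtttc

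Aligned over 250 bases, the MICA and MICB promoters were 82.7% identical, and both held the heat shock core. The ULBP promoters were less alike, with 49.1% for ULBP1 and ULBP2, 49.4% for ULBP2 and ULBP3 and 48.7% for ULBP1 and ULBP3, all within the 43.5 to 53.0% of the 32 remaining pairs. Motifs were searched on both strands of the 9 windows, and matches of different motifs may overlap. GAS was found in CD274 and ICAM1 (7.66% of 35116 promoters hold it), the interferon response core in CD274 alone (10.5%), and the heat shock core in MICA and MICB alone (6.77%). NF-kB was found in ULBP1 and ULBP3 (11.3%), AP-1 (TGANTCA) in ULBP2 and ULBP3, spanning the start in both (7.71%), and CRE (TGACGTCA) in NECTIN2, just past the start (1.85%). The common E-box (CANNTG) occurred in 6 of 9 and SP1 (GGGCGG) in 8 of 9, against 68.7% and 45.0% of all promoters, and neither is marked in capitals. These matches describe letters in a window and do not show that a factor binds there. NF-kB was searched as 1 fixed pattern of 10 bases, and sites that depart from it were not counted. The lack of a match in ICAM1 therefore does not show that its window lacks an NF-kB site. That window holds tggaaattcc, which departs from the pattern in its first base alone and lies before the stretch printed above.

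Library totals ran from 28534141 to 60397769 counts. The lowest count of any of the 10 ligands in any library was 139 (ULBP2), so no level of these ligands rests on a handful of reads. Some markers and list genes named below, such as CSF1R and CD96, were far lower. XPO7 (ENSG00000130227), the target of the shRNAs, was at 143, 132 and 129 CPM (library-scaled counts after TMM) in vector and 127, 144 and 139 CPM in vector/4OHT, at 26.4, 28.7 and 27.9 CPM in shXPO7_3/4OHT, and at 50.8, 54.0 and 51.8 CPM in shXPO7_5/4OHT, so all 6 shRNA libraries lay below the other 6. The 10 fibroblast markers summed to between 17159 and 28192 CPM in every library and were lower in vector/4OHT (17159 to 18623) than in vector (24444 to 28192). Of these 10, 5 fell and 0 rose in OIS. The 10 immune cell markers summed to between 0.437 and 0.765 CPM in vector, 0.886 and 1.27 CPM in vector/4OHT and 0.876 and 1.36 CPM in the shRNA libraries, with CD3E, MS4A1 and FCGR3A at 0 throughout, and the only one high enough to be tested, CSF1R, was at 0.354 ± 0.080 CPM in vector and 0.844 ± 0.11 CPM in vector/4OHT (SD, n = 3; called higher). Of 6 endothelial markers 3 were tested and 1 fell, and of 6 epithelial markers 4 were tested and 3 fell. The part of these markers in the results on the ligands was not tested. In such bulk libraries a change in the share of cells that express a gene and a change in transcript per cell cannot be told apart. Across genes, the log2 ratio of a library to the vector/4OHT mean followed the GC content of the transcripts to different degrees (Spearman's rho over 14864 genes, which are not independent), with 0.76, 0.59 and 0.12 in replicates B, T and A of shXPO7_5/4OHT, 0.55 in replicate T and -0.34 and -0.23 in replicates A and B of shXPO7_3/4OHT, and -0.20 to 0.30 for the vector/4OHT libraries against the other two. The calls of ligands in the knockdowns are therefore given both as fitted and with GC content and transcript length corrected for. Corrected shifts are given for some of the ligands, and the ratios of pairs are given uncorrected only.

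Between vector/4OHT and vector, 8 of the 10 ligands were called as different. ICAM1, ULBP1, ULBP2, PVR, CD274 and MICA rose and PDCD1LG2 and MICB fell, while ULBP3 and NECTIN2 did not pass the test (edgeR's quasi-likelihood test, Benjamini-Hochberg adjusted p under 0.05 over all genes). The transcriptome as a whole moved widely in this comparison: 50.9% of the 15284 genes were called, 24.8% higher and 26.1% lower, so that 8 of 10 called, 6 higher and 2 lower, is to be read against that. The median log2 fold change was 0.42 over the 10 and -0.0068 over all genes tested. In 9 of the 10 the libraries of vector and vector/4OHT did not overlap, as was so for 63.2% of all genes. For single genes, an exact two-sided permutation test gave p = 0.1 for each of these 9, the smallest that 3 libraries against 3 allow.

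**Figure D1:**
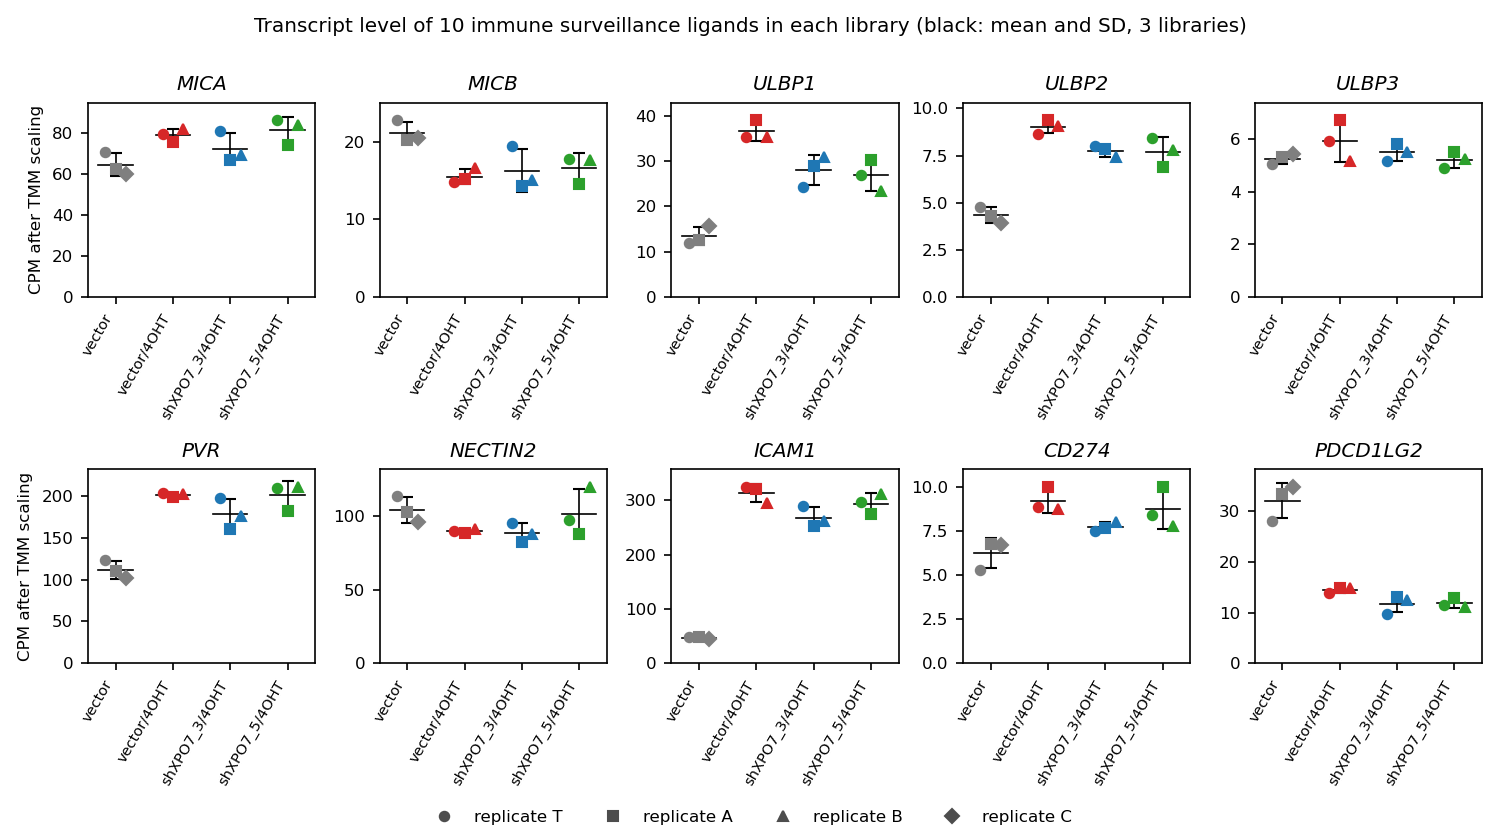
Transcript level of each ligand in CPM after TMM scaling (vertical axes, each starting at 0) in the 4 groups, with 1 point per library, its shape giving the replicate letter, and the mean and SD over 3 libraries in black. ICAM1, ULBP1, ULBP2 and PVR stand well above vector in all 9 libraries given 4OHT, PDCD1LG2 stands below in all 9, and the shXPO7 groups lie close to vector/4OHT.

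ICAM1, the LFA-1 ligand, had the largest change. It was at 49.2, 47.6 and 43.9 CPM in vector replicates T, A and C and at 325, 321 and 295 CPM in vector/4OHT replicates T, A and B, a 6.68-fold rise (log2 fold change 2.74, standard error, SE, 0.081, edgeR adjusted p = 9.32e-11). Every induced library was far above every non-induced one. On a scale per kb of exon, which allows genes to be compared, ICAM1 went from 12.7 ± 0.74 to 84.6 ± 4.33 CPM per kb (SD, n = 3), from the fifth highest of the 10 to the highest.

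Among the NKG2D ligands, the ULBP genes and the MIC genes did not move as a block. ULBP1, a GPI-anchored ligand, was at 11.9, 12.7 and 15.6 CPM in vector T, A and C and at 35.4, 38.9 and 35.3 CPM in vector/4OHT T, A and B (2.73-fold, log2 fold change 1.45, SE 0.13, edgeR adjusted p = 1.61e-06). ULBP2, its neighbour and likewise GPI-anchored, was at 4.79, 4.30 and 3.94 CPM in vector and 8.66, 9.36 and 9.04 CPM in vector/4OHT (2.08-fold, log2 fold change 1.05, SE 0.10, edgeR adjusted p = 3.17e-06). The induced and non-induced libraries of both genes were well apart. Of the stretches of 50 bases in ULBP2 transcripts, 32.2% also occur in other genes, 29.4% in RAET1L, and how the authors counted reads with several matches is not given, so the level of ULBP2 is less certain than the others. RAET1L itself had 0 counts in all 12 libraries. The part shared with other genes was 12.4% for ULBP3 and 6.85% for ULBP1.

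ULBP3, the third of that family, was nearly level, at 5.04, 5.30 and 5.41 CPM in vector and 5.90, 6.70 and 5.14 CPM in vector/4OHT, where replicate B lay among the vector libraries (log2 fold change 0.16, 95% confidence interval -0.07 to 0.40, adjusted p = 0.220 from edgeR). MICA, a transmembrane ligand, was at 70.9, 62.5 and 59.9 CPM in vector and 79.4, 75.6 and 81.7 CPM in vector/4OHT, a 1.23-fold rise (log2 fold change 0.29, SE 0.095, edgeR adjusted p = 0.0214). The groups did not overlap, but the call was lost with upper-quartile scaling (0.19, adjusted p = 0.188) and without any one of vector replicates A and C and vector/4OHT replicates T and B (0.26, 0.25, 0.29 and 0.26; range of the adjusted p over all alternatives 6.14e-06 to 0.188). MICB, its close relative and direct neighbour, went the other way, from 22.8, 20.2 and 20.6 CPM in vector to 14.8, 15.2 and 16.6 CPM in vector/4OHT (1.36-fold lower, log2 fold change -0.45, SE 0.12, edgeR adjusted p = 0.00882). It was the only one of the 5 that fell.

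Summed per kb of exon, the transcripts of the 5 NKG2D ligands rose from 47.4 ± 2.51 to 62.9 ± 0.60 CPM per kb (SD, n = 3). The ranges were 45.8 to 50.3 in vector and 62.2 to 63.3 in vector/4OHT. The make-up of the sum shifted. MICA supplied most of it in both groups, 56.9% ± 2.16 and 52.6% ± 2.15. The share of ULBP1 went from 9.04% ± 1.69 to 18.5% ± 0.99 and that of ULBP2 from 6.79% ± 0.37 to 10.6% ± 0.33, while that of MICB went from 16.0% ± 0.25 to 8.81% ± 0.48 (SD, n = 3 for each).

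The DNAM-1 ligands parted as well. PVR, the stronger of the pair in binding DNAM-1 and TIGIT, was at 123, 110 and 102 CPM in vector and 203, 198 and 202 CPM in vector/4OHT, a 1.8-fold rise (log2 fold change 0.85, SE 0.092, edgeR adjusted p = 8.91e-06). NECTIN2, which also binds the inhibitory receptor PVRIG, was at 114, 103 and 96.4 CPM in vector and 90.3, 89.1 and 91.2 CPM in vector/4OHT (log2 fold change -0.21, 95% confidence interval -0.45 to 0.02, adjusted p = 0.119 from edgeR). Its induced libraries all lay below the non-induced ones without passing the test. It was called, as lower, with the replicate letter as a block (-0.31) and in a fit to only these groups (-0.21), and it shrank to -0.051 with GC content and length corrected for and to -0.056 with that and the block (range of the adjusted p over all alternatives 0.0282 to 0.338).

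The PD-1 ligands moved in opposite directions. CD274 was at 5.28, 6.75 and 6.69 CPM in vector and 8.83, 10.0 and 8.74 CPM in vector/4OHT, a 1.47-fold rise (log2 fold change 0.55, SE 0.12, edgeR adjusted p = 0.00218). PDCD1LG2 was at 28.1, 33.3 and 34.9 CPM in vector and 13.8, 14.9 and 14.8 CPM in vector/4OHT, 2.22-fold lower (log2 fold change -1.15, SE 0.12, edgeR adjusted p = 5.10e-06). By transcript level, PDCD1LG2 was thus the more abundant PD-1 ligand in non-induced cells. It remained so after induction, at 6.13 ± 0.24 against 2.24 ± 0.17 CPM per kb (SD, n = 3).

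**Figure D2:**
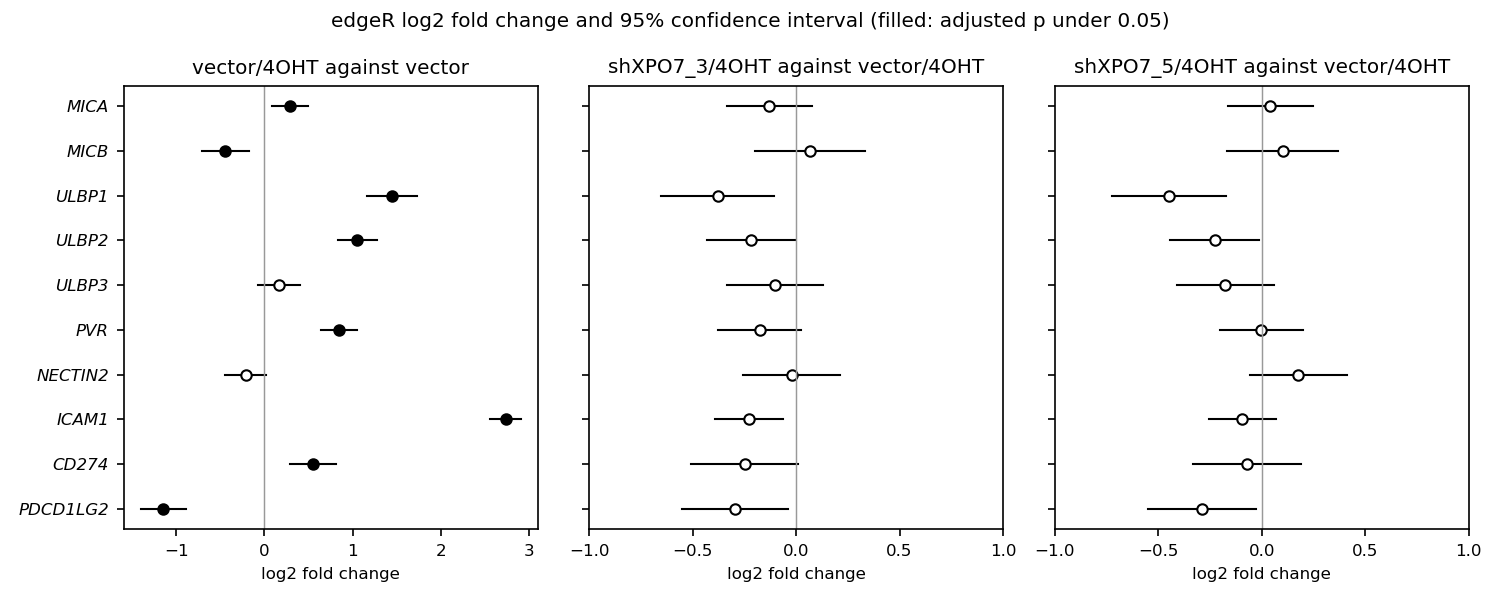
Log2 fold change (points) and 95% confidence interval (lines) of each ligand from edgeR for induction with 4OHT (left) and for the shRNAs against vector/4OHT (middle and right, on a narrower axis). Filled points passed an adjusted p of 0.05, which was so for 8 of 10 ligands on induction and for 0 of 10 with either shRNA.

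In vector cells, the order of the levels per kb was PVR (31.7 ± 3.01), NECTIN2 (27.9 ± 2.34) and MICA (27.0 ± 2.40), whose libraries overlap from one gene to the next, then PDCD1LG2 (13.6 ± 1.49) and ICAM1 (12.7 ± 0.74), which also overlap, then MICB (7.57 ± 0.50), ULBP3 (5.31 ± 0.19), ULBP1 (4.26 ± 0.63), ULBP2 (3.22 ± 0.32) and CD274 (1.52 ± 0.20 CPM per kb, SD, n = 3), which did not. In vector/4OHT it was ICAM1, PVR (57.1 ± 0.76), MICA (33.1 ± 1.30), NECTIN2 (24.1 ± 0.28) and ULBP1 (11.6 ± 0.66), each clear of the next, then ULBP2 (6.69 ± 0.26), PDCD1LG2, ULBP3 (5.99 ± 0.79) and MICB (5.55 ± 0.34), of which ULBP3 overlaps with each of the other three and PDCD1LG2 with MICB, and CD274 last. ICAM1, ULBP1 and ULBP2 thus stood higher in the order after induction and PVR, NECTIN2, PDCD1LG2, ULBP3 and MICB lower. MICA and CD274 kept their place. A lower place is not a lower level, as PVR rose.

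Ratios within a library do not depend on its scaling. The ratio of CD274 to PDCD1LG2, per kb, was 0.108, 0.117 and 0.110 in vector T, A and C and 0.367, 0.387 and 0.340 in vector/4OHT T, A and B, a shift of 1.71 on the log2 scale. The ratio of MICA to MICB was 3.65, 3.63 and 3.41 in vector and 6.30, 5.84 and 5.77 in vector/4OHT, a shift of 0.74. The ratio of PVR to NECTIN2 was 1.15, 1.14 and 1.12 in vector and 2.39, 2.37 and 2.36 in vector/4OHT, a shift of 1.06. ULBP1 to ULBP3 shifted by 1.29 and ULBP2 to ULBP3 by 0.89. In all 5 pairs the groups did not overlap (exact two-sided permutation test, p = 0.1 for each, the smallest that 3 against 3 allow). The share of other gene pairs without overlap was not computed. Among single genes it was 63.2%. The ratios combine the changes of single genes given above and are not independent of them. The PVR to NECTIN2 ratio had an SD of 0.013 in vector and 0.014 in vector/4OHT.

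The genes beside the ligands did not share one direction either. HLA-B, the class I gene before MICA, was lower in vector/4OHT (-0.47), where MICA rose. PLGRKT before CD274 (0.28) and RIC1 after PDCD1LG2 (0.32) both rose in OIS and thus frame the falling PDCD1LG2. RAET1G beside ULBP2 fell by 1.04 on the log2 scale, from a low mean of 1.83 CPM to 0.864 CPM. BCAM before NECTIN2 fell by 1.42, and TOMM40 after NECTIN2 rose by 0.35. ICAM4, directly after ICAM1 and a red cell adhesion molecule, rose by 1.51, from 0.626 ± 0.28 to 1.8 ± 0.068 CPM (SD, n = 3), and MRPL4 on the other side was not called (0.12, adjusted p = 0.421 from edgeR). Both genes beside PVR were low: CEACAM19 (-0.41, adjusted p = 0.0496 from edgeR) stayed below 3 CPM on average and IGSF23 was too low to be tested.

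Wider sets of surveillance genes showed the same mixture, with counts that are read against the 50.9% called among all genes. Of 3 other NKG2D ligands, 2 were tested and RAET1G, a further ULBP-type ligand, fell (adjusted p = 0.00229 from edgeR). Its level was low, at 1.83 ± 0.34 CPM in vector and 0.864 ± 0.26 CPM in vector/4OHT (SD, n = 3). Of 7 other nectins and nectin-like molecules, 4 were tested and 0 were called in OIS at an adjusted p of 0.05 by edgeR. Of 12 ligands of other NK receptors, 10 were tested, 3 rose and 2 fell (median -0.035): the CD2 ligand CD58 rose from 3.17 ± 0.76 to 6.27 ± 0.44 CPM and the NKp80 ligand CLEC2B from 2.39 ± 0.46 to 4.66 ± 0.51 CPM, and PDGFD, a growth factor that binds NKp44, fell from 12.5 ± 1.74 to 6.47 ± 0.76 CPM (SD, n = 3; adjusted p = 0.00367, 0.00648 and 0.000447 from edgeR).

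Of 12 further B7 family and checkpoint ligands, 7 were tested, 1 rose and 3 fell (median -0.52). ICOSLG, the costimulatory ligand of ICOS, rose most of all genes in these lists, from 1.12 ± 0.19 to 18.2 ± 0.85 CPM (SD, n = 3; log2 fold change 4.00, SE 0.13, edgeR adjusted p = 2.20e-10). VSIR (VISTA), an inhibitory ligand, and TNFRSF14 (HVEM), which binds BTLA, fell, with log2 fold changes of -1.6 and -1.23 (edgeR adjusted p = 6.63e-06 and 0.000184). Both were low, VSIR going from 4.87 ± 0.49 to 1.61 ± 0.14 CPM and TNFRSF14 from 2.09 ± 0.20 to 0.890 ± 0.065 CPM (SD, n = 3). Of 10 other adhesion ligands, 8 were tested, 5 rose and 2 fell (median 0.38). ICAM4 and ICAM5 rose by log2 fold changes of 1.51 and 1.47, whereas VCAM1, the ligand of the integrin VLA-4, fell from 11.8 ± 1.72 to 2.74 ± 0.16 CPM (SD, n = 3; log2 fold change -2.11, adjusted p = 2.54e-06 from edgeR), opposite to ICAM1.

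Genes that act on the ligands after transcription or on CD274 were also followed. Of 6 proteases and helpers that shed NKG2D ligands, all were tested and 1 was called, MMP14, a membrane-bound metalloprotease, which rose in OIS (log2 fold change 1.14, edgeR adjusted p = 4.97e-07), with a median of 0.067 for the list. Of 9 regulators of CD274, 5 rose and 0 fell (median 0.21). They included CMTM6, which keeps PD-L1 from degradation (0.82), IFNGR1, a chain of the interferon gamma receptor (0.45), and the transcription factor IRF1 (0.39). Of 10 receptors that immune cells use to read these ligands, 8 were too low to be tested, and CD96, the only one called, was at 0.108 ± 0.033 and 0.320 ± 0.21 CPM (SD, n = 3).

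**Figure D3:**
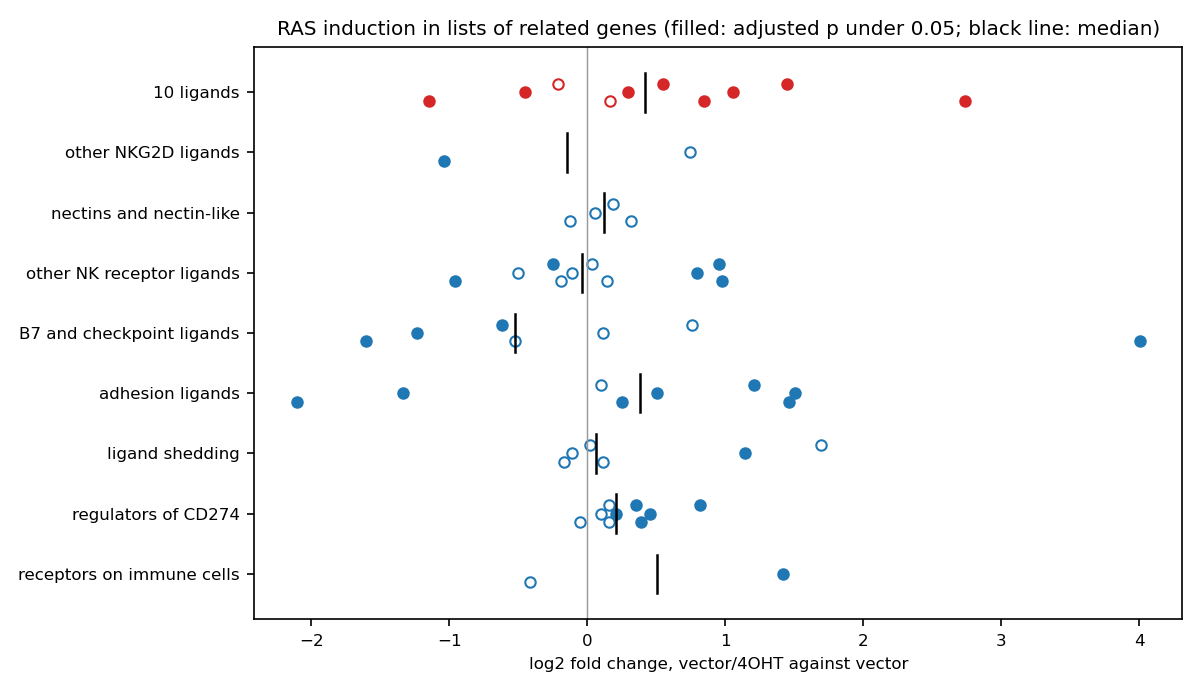
Log2 fold change of each tested gene on RAS induction (horizontal axis) for the 10 ligands (red) and 8 lists of related genes (blue), filled where the adjusted p was under 0.05, with the median of each list as a black line. Risers and fallers occur side by side in the ligands (median 0.42), in the B7 and checkpoint ligands (median -0.52) and in the adhesion ligands (median 0.38).

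The question of the knockdown groups was how cells with less XPO7 respond to the same dose of 4OHT. RAS activity was not measured in these libraries. With shXPO7_3, edgeR called 0 of the 10 ligands at an adjusted p of 0.05 (4 at an unadjusted p under 0.05), beside 0.124% of all genes. With shXPO7_5 it called 0 of 10 (3 at an unadjusted p under 0.05), beside 0.589%, and for the average of both shRNAs 0 of 10 (4 at an unadjusted p under 0.05), beside 0.556%. DESeq2 called 0, 1 and 1 of 10 in these comparisons, beside 0.612%, 3.63% and 1.84% of the genes for which it gave an adjusted p. The 2 single-shRNA comparisons and their average share the vector/4OHT libraries and are not independent.

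In size, most of the shifts pointed down. With shXPO7_3, 9 of 10 log2 fold changes were below 0 (median -0.20, from -0.38 to 0.067), and with shXPO7_5 7 of 10 (median -0.082, from -0.45 to 0.18). Over all genes tested the medians were -0.0031 and 0.0058, with 48.9% and 50.7% of genes higher. Groups did not overlap with vector/4OHT for 6 of 10 ligands with shXPO7_3 and 3 of 10 with shXPO7_5, where 14.6% and 26.8% of all genes did not overlap, and for 3 of 10 with all 6 knockdown libraries, where 7.86% did not. These 3 were ULBP1, ULBP2 and PDCD1LG2 (exact two-sided permutation test, p = 0.0238 for each, the smallest that 6 against 3 allow, and not adjusted for the 10 genes).

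As fitted, ULBP1 had the largest difference with either shRNA, while with GC content and length corrected for its value with shXPO7_5 was -0.21, beside -0.26 for ICAM1. ULBP1 was at 24.3, 29 and 30.8 CPM in replicates T, A and B of shXPO7_3/4OHT and at 26.9, 30.1 and 23.3 CPM in the same replicates of shXPO7_5/4OHT, beside 35.3 to 38.9 CPM in vector/4OHT. The log2 fold changes were -0.38 (95% confidence interval -0.65 to -0.11, adjusted p = 0.483 from edgeR) and -0.45 (-0.72 to -0.17, adjusted p = 0.123 from edgeR). All 6 knockdown libraries lay below the 3 vector/4OHT libraries and above the 3 vector libraries. In shXPO7_5/4OHT the call turned on the method and on 1 library. DESeq2 called it (-0.43, adjusted p = 0.0499), as did edgeR without replicate A of that group (-0.54, adjusted p = 0.0334). That edgeR fit called 3634 of 15790 genes, against 90 of 15284 in the main fit, so its call of ULBP1 is to be read against that. Over all alternatives, fitted with edgeR or DESeq2, the adjusted p ranged from 0.0334 to 0.436.

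ULBP2 was at 8.01, 7.85 and 7.40 CPM with shXPO7_3 and 8.42, 6.92 and 7.78 CPM with shXPO7_5, beside 8.66 to 9.36 CPM in vector/4OHT (-0.22 and -0.23, adjusted p = 0.751 and 0.221 from edgeR). PDCD1LG2 was at 9.82, 13 and 12.6 CPM with shXPO7_3 and 11.5, 13 and 11.2 CPM with shXPO7_5, beside 13.8 to 14.9 CPM (-0.29 for both, adjusted p = 0.646 and 0.214 from edgeR). As fitted, PDCD1LG2 lay further from the vector level in the knockdown libraries, and ULBP1 and ULBP2 nearer to it, none of them called. With GC content and length corrected for, the PDCD1LG2 difference was -0.27 with shXPO7_3 and -0.031 with shXPO7_5. ICAM1 was at 289, 253 and 263 CPM with shXPO7_3 and 296, 274 and 311 CPM with shXPO7_5, beside 295 to 325 CPM (-0.23 and -0.093, adjusted p = 0.492 and 0.419 from edgeR).

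The remaining ligands were likewise not called as fitted. CD274 was at 7.46, 7.64 and 8.02 CPM with shXPO7_3, all below the 8.74 to 10.0 CPM of vector/4OHT. With shXPO7_5 it was at 8.42, 10.0 and 7.78 CPM (log2 fold changes -0.25 and -0.071, adjusted p = 0.806 and 0.705 from edgeR). PVR was at 197, 161 and 176 CPM with shXPO7_3, all below the 198 to 203 CPM of vector/4OHT. With shXPO7_5 it was at 210, 182 and 211 CPM, around that range (-0.18 and -0.00098, adjusted p = 0.883 and 0.996 from edgeR). NECTIN2 was at 95.9, 82.8 and 87.9 CPM with shXPO7_3 and 97.3, 88.2 and 120 CPM with shXPO7_5, the highest value in replicate B. MICA, MICB and ULBP3 overlapped with vector/4OHT in both knockdowns, with log2 fold changes between -0.18 and 0.10.

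What the 3 libraries per group leave possible can be read from the confidence intervals. The widest limits over the 10 ligands were -0.65 and 0.33 with shXPO7_3 and -0.72 and 0.41 with shXPO7_5, so a 2-fold change of any ligand (1 on the log2 scale) lay outside all 20 intervals as fitted. Compared directly, shXPO7_5/4OHT and shXPO7_3/4OHT differed in 0 of 10 ligands by edgeR (0 at an unadjusted p under 0.05, 0 by DESeq2, beside 0.0131% of all genes), with limits from -0.34 to 0.44.

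The GC content of the ligand transcripts, from 41.9% in PDCD1LG2, 42.6% in ULBP1 and 42.7% in CD274 to 58.3% in ICAM1 and 61.1% in NECTIN2, bears on these small shifts. Once GC content and length were corrected for, edgeR called 4 of 10 ligands lower with shXPO7_3 (1.91% of all genes called), namely ULBP1 (-0.34, adjusted p = 0.0157), ICAM1 (-0.24, adjusted p = 0.0303), PVR (-0.19, adjusted p = 0.0368) and PDCD1LG2 (-0.27, adjusted p = 0.0442). With shXPO7_5 it called 1 of 10 (2.69% of all genes called), ICAM1 (-0.26, adjusted p = 0.0190), and for the average 3 of 10 (3.32% of all genes called), ICAM1 (-0.25, adjusted p = 0.00786), ULBP1 (-0.28, adjusted p = 0.0143) and PVR (-0.17, adjusted p = 0.0245). Over all alternatives the adjusted p for these ligands spanned, with shXPO7_3, 0.0133 to 0.9998 for ULBP1, 0.0182 to 0.9998 for ICAM1, 0.0368 to 0.9999 for PVR and 0.0442 to 0.9999 for PDCD1LG2. It spanned 0.0101 to 0.791 for ICAM1 with shXPO7_5, and for the average 0.00489 to 0.757 for ICAM1, 0.0116 to 0.509 for ULBP1 and 0.0229 to 0.828 for PVR. With shXPO7_5 the correction took ULBP1 from -0.45 to -0.21 and PDCD1LG2 from -0.29 to -0.031, turned CD274 from -0.071 to 0.16 and NECTIN2 from 0.18 to -0.028, and enlarged ICAM1 from -0.093 to -0.26. With shXPO7_3 it moved no ligand by more than 0.05. The part of GC content in the uncorrected differences was not tested beyond this.

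**Figure D4:**
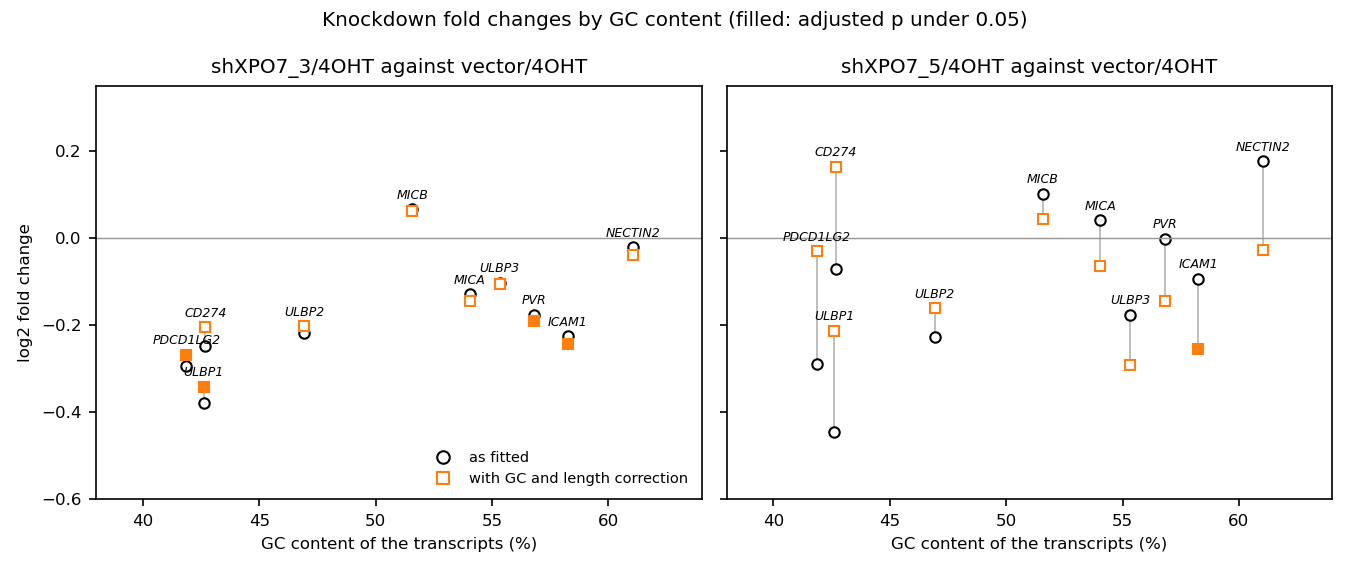
Log2 fold change of each ligand against vector/4OHT (vertical axis) by the GC content of its transcripts (horizontal axis, percent) for shXPO7_3 (left) and shXPO7_5 (right), as fitted (black circles) and once GC content and length were corrected for (orange squares), filled where the adjusted p was under 0.05. The correction hardly moves the points on the left and moves those on the right by up to 0.26, upward at low and downward at high GC content.

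The ratios within pairs were also followed in the knockdown libraries. PVR to NECTIN2 was 2.13 ± 0.059 with shXPO7_3 and 2.12 ± 0.23 with shXPO7_5, below the 2.37 ± 0.014 of vector/4OHT (SD, n = 3) in 6 of 6 libraries (exact two-sided permutation test, p = 0.0238, the smallest that 6 against 3 allow), and ULBP1 to ULBP3 was 1.61 ± 0.14 and 1.62 ± 0.19 against 1.96 ± 0.18, likewise lower in 6 of 6 (p = 0.0238 in the same exact test). These are small differences, with 5 pairs compared and no adjustment. The share of other gene pairs that lie apart in this way was not computed. Among single genes it was 7.86%. The GC contents are 56.8% and 61.1% for the first pair and 42.6% and 55.3% for the second. The ratios were not corrected for GC content or length, and the part of either in them was not tested. CD274 to PDCD1LG2 was 0.381 ± 0.051 and 0.422 ± 0.022 against 0.365 ± 0.024, and MICA to MICB 5.23 ± 0.31 and 5.73 ± 0.22 against 5.97 ± 0.29 (SD, n = 3), and both overlapped with vector/4OHT over the 6 libraries, as did ULBP2 to ULBP3.

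In the wider lists, 0 genes were called with shXPO7_3 by edgeR. With shXPO7_5 and for the average 1 was, CADM4, a nectin-like adhesion molecule, at 3.82 ± 0.073 CPM in vector/4OHT and 6.27 ± 0.45 CPM in shXPO7_5/4OHT (SD, n = 3; log2 fold change 0.71, adjusted p = 0.0192 from edgeR). It was named for being that one call, after its values were seen. Of the 10 fibroblast markers, which summed to 17920 to 21717 CPM in shXPO7_3/4OHT and 19455 to 22099 CPM in shXPO7_5/4OHT, 0 were called with shXPO7_3, 1 rose with shXPO7_5 (PDGFRB, 0.58, edgeR adjusted p = 0.0256) and 2 rose for the average (PDGFRB and COL3A1, edgeR adjusted p = 0.0236 and 0.0437). The calls of CADM4, PDGFRB and COL3A1 are as fitted. Values corrected for GC content and length are not given for them, and the part of GC content in them was not tested.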

How the data were processed

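Samples (12, in 4 groups of 3) were grouped by their labels. The authors deposited raw counts per gene; per the submitters' processing notes, CASAVA 1.8.4, TopHat2 2.0.11, featureCounts 1.18.0, hg19 and GRCh37 were used. The library kit was stranded. Annotation, strand setting and multi-mapping reads are not described in those notes, so counts of overlapping or near-identical genes are uncertain. ERCC entries (92, all 0) were left out. No 2 libraries of a group were alike within sampling noise. Symbols were matched by Ensembl identifier for 50127 of 62069 genes (99.43% of counts).

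The paper describes gene set enrichment analysis of these data, and its text used here names no test for single genes. Counts were analysed with edgeR 4.0.16 in R 4.3.3 (filterByExpr, TMM, quasi-likelihood fit to all 12 libraries, no covariates, Benjamini-Hochberg over 15284 genes, threshold 0.05) and tested on simulated data. Exact permutation tests (scipy 1.17.1) used log2 CPM. Exon lengths and GC content came from GENCODE 29, and promoters from RefSeq; the correction for both used splines (5 degrees of freedom) as offsets. Alternatives were RLE and upper-quartile factors, other filters, the replicate letter as a block, the correction, fits to only the groups compared, DESeq2 1.42.0 and leaving out each library. The rule named the ligands, XPO7, up to 3 called genes of each list with the largest change in OIS, the nearest protein-coding neighbours and the 3 genes most like each strongly changed ligand. Those for ULBP2 are not reported here. Ligands, lists and tests were chosen with earlier results of these data known.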

Additional observations from a re-analysis of the deposited data

How the results depend on the processing

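Over 15 alternatives, 7 ligands kept their call in OIS in every one (ICAM1, ULBP1, ULBP2, PVR, CD274, MICB and PDCD1LG2), and all 10 kept their direction. MICA kept its call in 10 of 15. Called among the 10 ligands with the GC content and length correction were 4 with shXPO7_3, 1 with shXPO7_5 and 3 for the average. With the replicate block and that correction the counts were again 4, 1 and 3, beside 362, 863 and 684 of all 15284 genes. With DESeq2 1 was called with shXPO7_5 and 1 for the average. With 1 library left out, 0 to 1 were called with shXPO7_5. The 1 came without shXPO7_5/4OHT replicate A, a fit that called 3634 of 15790 genes. With the replicate block alone, 0 ligands were called in the knockdowns and NECTIN2 was called in OIS (-0.31, adjusted p = 0.0282 from edgeR). Of 15 pairs of libraries that share a letter, 8 deviated together with r over 0.1 (range -0.23 to 0.59). Pairs with different letters ranged from -0.62 (vector replicate T and shXPO7_3/4OHT replicate B) to 0.51 (vector replicate C and shXPO7_5/4OHT replicate A). These values do not settle if the letters are pairs. The main fit did not take them as such, and the block is given as an alternative. ULBP3 was called in OIS with the block and the correction together (0.33, adjusted p = 0.0406 from edgeR). The causes were not tested. Over all genes, 19 were called with shXPO7_3 (1 to 362 over the alternatives), 90 with shXPO7_5 (2 to 3634), 85 for the average (1 to 684), 2 between the shRNAs (0 to 41) and 7777 in OIS (6735 to 9681). With upper-quartile factors 38.3% instead of 48.8% of OIS calls were higher, and the median over all genes moved to -0.10 on the log2 scale. Each ligand had at least 139 counts in every library.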

Other observations

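As a description over all 12 libraries, which fall into non-induced and induced ones and so give high values to any gene that responds to induction, the genes most like ICAM1 by Pearson's r of log2 CPM were ANGPTL4, C2CD2 and AMPD3 (r of 0.998, 0.998 and 0.997), and 894 of the genes tested had an r of at least 0.95. ANGPTL4, a secreted inhibitor of lipoprotein lipase, rose from 14.9 to 167.9 CPM in OIS. Most like PDCD1LG2 were PKP4, CAP2 and PLAGL1 (0.998, 0.996 and 0.995, 434 genes at 0.95 or more), which fell with it by 0.64, 1.15 and 0.75 on the log2 scale. Most like ULBP1 were RAB39B, ENTPD1-AS1 and H4C8 (0.988, 0.987 and 0.986, 259 genes at 0.95 or more). RAB39B rose in OIS by 2.23 on the log2 scale. No p-value is given for these values.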
